A study of Mus musculus with 39 samples.

Results

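High fat and low fat feeding were compared in stromal vascular cells of mouse brown fat on 10 of the 39 arrays of the series, chosen by diet and time label. They are the 5 arrays of C57BL/6J mice fed a low fat diet (LFC) and the 5 arrays of mice fed a high fat diet (HFC) at Weeks 3, 9, 12, 15 and 18, where both diets have an array. Per the labels, the low fat diet drew 10% of its calories from fat, and the high fat diet drew 60% from fat and held more sucrose. Neither group received the botanical formulation KAL-1 that other mice of the study were given. Mice entered the study after weaning, at 3 to 4 weeks of age, with 30 animals per diet, and 5 animals per diet were killed every 3 weeks. The labels do not say whether the animals of a week were pooled on an array. Weeks were counted from Day 14 of feeding. Each diet had 1 array per week, so the error of a diet difference below is the spread of 5 weekly differences, and change over time is part of that spread.

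Brown fat burns fuel to make heat through Ucp1, the uncoupling protein of its mitochondria, and its stromal vascular fraction holds the cells other than mature fat cells, such as macrophages, vessel cells and fibroblasts. New fatty acids are made from glucose and fructose by lipogenesis. Acly and Acss2 make acetyl-CoA, Acaca turns it into malonyl-CoA, Fasn joins the units into palmitate, and Scd1 puts a double bond into the product. The reducing power comes from Me1 and the pentose phosphate path with G6pdx, Pgd and Tkt, and the transcription factors Srebf1 and Mlxipl drive the genes. Lipogenesis is known to respond to diet, with lower gene levels where dietary fat is high and higher levels where carbohydrate is plentiful.

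The labels call the RNA that of infiltrating macrophages of brown fat. Marker genes of brown fat cells were nonetheless bright on 9 of the 10 arrays. A level is given throughout as log2 of the spot signal minus the 75th percentile of the same array, and a difference as HFC minus LFC of such levels. Ucp1 lay at 4.89, 7.33, 5.80, 6.11 and 3.87 on the LFC arrays of Weeks 3, 9, 12, 15 and 18, and at 5.26, 6.15, -3.46, 6.70 and 6.61 on the HFC arrays. HFC Week 12 therefore stood apart. The summed level of the 20 brown fat cell markers was 3.29 there and 8.41 to 10.0 on the other 9 arrays, while 17 of the 20 markers were still well above background. On the same array the 2 mesothelial markers tested (Krt18 and Gpm6a) summed to 4.58, against -4.79 to 1.16 elsewhere. The other 8 of the 10 markers in that list were not tested. It also had 11.1% of its spots marked as outliers (0.516% or less on the others) and 91.6% well above background. The summed level of the 18 macrophage markers tested was 7.23 to 8.57 on 6 arrays and 5.83 to 6.07 on HFC Week 9 and LFC Weeks 12, 15 and 18. HFC Week 9, LFC Week 12 and LFC Week 18 carry BA or BAT in their titles, and at Weeks 3 and 15 neither title does. What the letters mean is not given in the labels, and whether these 3 arrays and HFC Week 12 hold the same cell fraction as the others was not tested. The diet differences of Weeks 9, 12 and 18 rest on them. Skeletal muscle markers ranged from a summed level of 3.00 on HFC Week 12 and 4.09 on LFC Week 15 to 10.1 on HFC Week 3. The share of spots well above background was 32.3% (LFC Week 9) to 91.6%, and the arrays with the highest 75th percentile (LFC Week 12, HFC Week 9 and HFC Week 12, at 917.1 to 1289 intensity units) had 578 to 1126 saturated spots. A saturated level is a lower bound. The main results are therefore given with and without Week 12, and many also at Weeks 3 and 15. In bulk RNA, fewer cells of a type and less RNA per cell cannot be told apart.

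**Figure D1:**
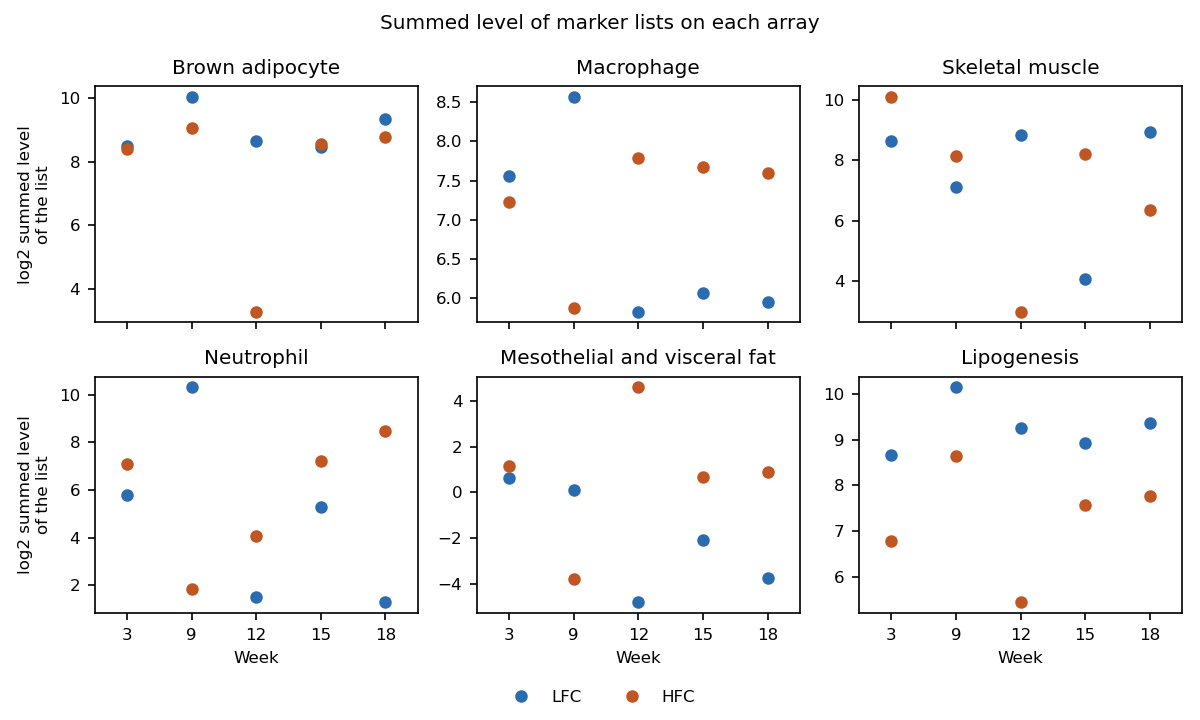
Summed level (log2, relative to the 75th percentile of the array) of 6 gene lists on each of the 10 arrays, with the week on the x axis and LFC in blue and HFC in orange. HFC Week 12 is low in brown fat cell and skeletal muscle markers and high in the 2 mesothelial markers tested. As measured, the summed lipogenesis level is lower in HFC than in LFC at every week. At Week 9 the HFC sum is a lower bound, since its Fasn, Tkt and Thrsp spots were saturated, so the side at that week is not fixed.

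No probe passed the test of HFC against LFC over the 5 weeks. Of 23902 probes tested (17492 genes, each read well above background by 5 or more arrays), 0 (0%) had a Benjamini-Hochberg adjusted p under 0.05 in limma with week as a block. The lowest adjusted value was 0.994, which therefore holds as a minimum for every gene named from the 10 arrays, and 404 probes had an unadjusted p under 0.05. The median probe differed by -0.12 with an SD over weeks of 1.28, and the share of probes at least 2-fold apart at a single week was 24.1% at Week 3, 48.8% at Week 9, 52.3% at Week 12, 26.7% at Week 15 and 60.9% at Week 18. Without Week 12 the count of calls was also 0, with 536 probes at an unadjusted p under 0.05 and a median SD of 1.18. The exact sign-flip test over 5 weeks cannot go below a two-sided p of 0.0625, so it cannot reach 0.05 for any gene. What follows describes the genes that lay on the same side at every week, and none of them is called changed.

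The mean difference was below 0 for 13867 of the 23902 probes tested and above 0 for 10035. Counts of list members below or above 0 on the mean are to be read beside these. HFC was lower than LFC at 5 of 5 weeks for 925 probes (3.87% of those tested) and higher at 5 of 5 for 240 (1.00%). Among the 10913 probes well above background on all 10 arrays, 666 were lower and 70 higher at every week. A difference of at least 2-fold at each of the 5 weeks was seen for 10 probes that were lower (0.0418%) and 6 that were higher (0.0251%). These counts were 0 and 0 after normexp background correction, and 6 and 0 among probes well above background on all 10 arrays. Tkt, among the 10 lower probes, had a saturated HFC spot at Week 9, so its side at that week is not fixed. All 5 HFC arrays lay below all 5 LFC arrays for 116 probes (0.485%) and above them for 9 (0.0377%). Without Week 12, 1645 probes (6.88%) were lower and 981 (4.10%) higher at 4 of 4 weeks, and 16 (0.0669%) and 86 (0.360%) were at least 2-fold lower and higher. The excess of lower over higher probes in the 2-fold count thus turned around when Week 12 was left out. The same count was 34 lower and 92 higher without Week 9.

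**Figure D2:**
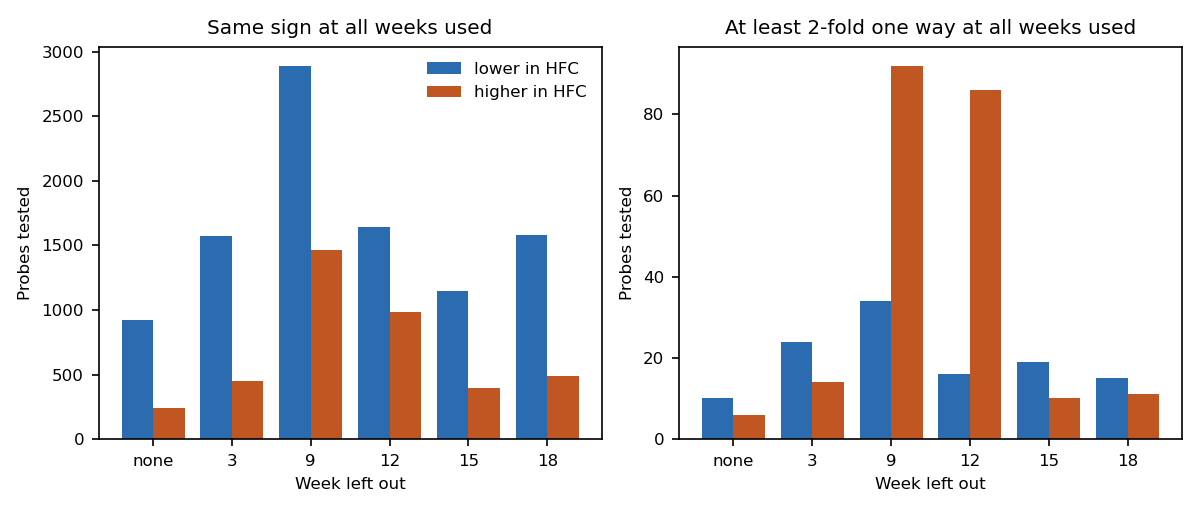
Number of probes (y axis) that were lower (blue) or higher (orange) in HFC at all weeks used, with the week left out on the x axis, for any difference (left) and for differences of at least 2-fold (right). With all 5 weeks 10 probes were at least 2-fold lower and 6 higher, and without Week 12 these became 16 and 86.

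Scd1, the desaturase that makes oleate and palmitoleate, had the smallest p of all genes and the steadiest large difference. Its LFC levels were 5.22, 7.91, 5.73, 5.60 and 7.46 at Weeks 3, 9, 12, 15 and 18, and its HFC levels were 2.27, 4.59, 2.14, 3.19 and 3.98. The groups did not overlap, since the highest HFC array lay below the lowest LFC array. The weekly differences were -2.94, -3.32, -3.59, -2.41 and -3.48, with a mean of -3.15 ± 0.48 (SD, n = 5 weeks), that is 8.87-fold lower. Its spot on the LFC array of Week 12 was saturated, so the difference of that week is a lower bound in size. Without Week 12 the mean was -3.04 ± 0.48 (n = 4), and at Weeks 3 and 15 it was -2.68. Its unadjusted p was 7.44e-05 in limma, which adjusted to 0.994. When all 21 LFC and HFC arrays of the series entered the fit and shared its spread, Scd1 had an adjusted p of 0.00809 for the same 5 weeks and was the 1 probe called. In the 5 earlier pairs of arrays (Day 1 to Week 0) Scd1 differed by -4.35. The later difference minus the earlier was 1.20 ± 0.42 (SE), with an adjusted p of 0.999, so a smaller gap at the later weeks did not pass the test. Scd1 was the 1 gene of the desaturase and elongase list that was at least 2-fold lower at every week. Of the 11 members tested (of 14), 2 were lower at 5 of 5 weeks, with a list median of -0.60 beside -0.12 over all probes. The second was Elovl5, an elongase of polyunsaturated fatty acids, at -0.60 ± 0.50 (SD, n = 5), though its second probe was not lower at every week. Elovl3, the elongase known from brown fat, was at -3.60 ± 4.78, with -11.48 at Week 12 and 1.09 at Week 18. Elovl6, which lengthens palmitate, was at -1.80 ± 3.41 over 4 weeks, since its LFC Week 18 spot was marked as an outlier.

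The lipogenesis list lay lower in HFC with and without the array that stood apart. Of its 15 genes 13 were tested, and all 13 had a mean difference below 0. At their brightest probe 5 (Fasn, Tkt, Me1, Thrsp and Acss2) were measured lower at 5 of 5 weeks, while 0 were higher at 5 of 5. The HFC Week 9 spots of Fasn, Tkt and Thrsp were saturated, so the side of these genes at Week 9 is not fixed. The second probes of Fasn and Acss2 were not lower at every week, those of Tkt and Me1 were, and Thrsp had 1 probe. The background share of probes lower at 5 of 5 weeks was 3.87%, and among probes well above background on all 10 arrays it was 666 of 10913. The median difference of the list was -2.00 with Week 12 and -1.17 without it, beside -0.12 and -0.09 for all probes tested. The weekly medians were -1.44, -0.12, -4.60, -1.25 and -2.08 at Weeks 3, 9, 12, 15 and 18. Those of all probes tested were -0.03, -0.14, -0.30, -0.09 and -0.07, so at Week 9 the list lay no lower than all probes. At both Weeks 3 and 15, 11 of the 13 were lower and 0 higher, beside 29.3% and 23.2% of all probes, and the median over these weeks was -1.24. Brown fat cell markers had medians of -0.04 and 0.18 at those weeks, while skeletal muscle markers had medians of 1.44 and 4.33 and fibroblast and collagen genes of 0.07 and 2.37. The part of these cell types in the difference was not tested. At Week 12 and Week 18, where lipogenesis was at its lowest, brown fat cell markers were at -5.18 and -2.22, and their part in the difference of those weeks was not tested. At Week 9, where brown fat cell markers were at 1.76, 7 of the 13 genes were measured lower, among them Fasn, Tkt and Thrsp.

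The promoters of Fasn and Thrsp are shown because both genes lay lower at every week as measured at their brightest probe. The CCAAT box, the letters bound by the factor NF-Y near many lipid genes, also stands in both more than once. They are the 250 bases before the RefSeq start in GRCm38.p6, both on the minus strand, Fasn at chr11:120824548-120824797 and Thrsp at chr7:97417551-97417800, with ATTGG and its reverse complement CCAAT in capitals.
Fasn: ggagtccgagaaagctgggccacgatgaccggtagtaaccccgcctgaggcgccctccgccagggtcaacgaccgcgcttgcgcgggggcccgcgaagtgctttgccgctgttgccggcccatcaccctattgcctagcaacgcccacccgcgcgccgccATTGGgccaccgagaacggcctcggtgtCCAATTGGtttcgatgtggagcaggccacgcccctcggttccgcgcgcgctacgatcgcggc
Thrsp: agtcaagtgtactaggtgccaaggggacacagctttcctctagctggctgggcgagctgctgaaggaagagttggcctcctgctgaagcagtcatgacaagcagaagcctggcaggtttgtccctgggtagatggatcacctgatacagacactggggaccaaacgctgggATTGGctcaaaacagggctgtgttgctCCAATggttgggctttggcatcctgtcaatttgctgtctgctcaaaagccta
ATTGG was searched on both strands in 32851 promoters of this length, and 33.8% held it. Of 21 promoters of the 15 genes of the lipogenesis list, 12 held it (57.1%), from 11 genes. CACGTG, the E box, was in 2 (9.52%, background 6.02%) and the sterol regulatory element TCACNCCAC in 1 (4.76%, background 1.05%). The letters of TCACNCCAC and CACGTG can overlap, and a match is only a match of letters.

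Fasn, the fatty acid synthase, lay at 7.41, 9.08, 5.58, 8.25 and 7.10 on the LFC arrays of Weeks 3, 9, 12, 15 and 18 and at 5.17, 6.17, 3.49, 6.68 and 6.48 on the HFC arrays. At this probe the HFC array was the lower at every week, while the groups overlapped across weeks. The mean difference was -1.89 ± 0.85 (SD, n = 5), -1.84 ± 0.98 without Week 12 and -1.91 at Weeks 3 and 15. The second probe differed by -1.93 on the mean but was not lower at every week. The spots of the brighter probe on LFC Weeks 12 and 18 and on HFC Week 9 were saturated. Its differences of Weeks 12 and 18 are thus lower bounds in size. That of Week 9 is an upper bound in size, so its side is not fixed.

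Tkt, the transketolase of the pentose phosphate path, was the lipogenesis gene with the smallest spread as measured. Its LFC levels were 6.79, 8.49, 5.59, 6.32 and 7.04 and its HFC levels were 5.35, 6.17, 3.69, 5.28 and 5.21. As measured, only the LFC array of Week 12 came within the range of HFC. Its differences ran from -1.04 to -2.32, with a mean of -1.71 ± 0.48 (SD, n = 5), -1.66 ± 0.55 without Week 12 and -1.24 at Weeks 3 and 15. The same 3 arrays as for Fasn had saturated spots, so the mean and SD rest in part on bounds. The differences of Weeks 12 and 18 are lower bounds in size. That of Week 9 (-2.32) is an upper bound in size, so its side is not fixed. The Tkt probe reads the end of the coding sequence, where the stop codon stands in capitals.
Tkt probe: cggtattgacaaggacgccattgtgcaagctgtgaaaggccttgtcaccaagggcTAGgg

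Me1, the malic enzyme that supplies NADPH, was read by 2 probes. The brighter lay at 3.95, 5.52, 5.80, 4.05 and 4.06 on LFC and at 1.98, 4.2, 1.35, 2.79 and 3.07 on HFC, with a mean difference of -2.00 ± 1.42 (SD, n = 5) of -1.39 ± 0.41 without Week 12 and of -1.61 at Weeks 3 and 15. The other probe differed by -2.70 ± 1.86, at least 2-fold at every week. The probe named LOC677317 has the same 60 letters as the brighter Me1 probe and differed by -2.13, so it counts as a repeat of Me1 and not as a further gene. Thrsp, a nuclear protein of fat synthesis, differed by -1.76 ± 1.63, by -1.07 ± 0.60 without Week 12 and by -1.09 at Weeks 3 and 15. Its spots on LFC Week 12 and HFC Week 9 were saturated, so the side of its Week 9 difference of -0.31 is not fixed. Acss2, the cytosolic acetyl-CoA synthetase, differed by -2.59 ± 3.34, with -8.31 at Week 12, -0.12 at Week 9 and -2.13 at Weeks 3 and 15.

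The other members lay lower on the mean but not at every week. Acly, the ATP citrate lyase, was at -5.06, -2.01, -5.45 and -2.76 at Weeks 3, 9, 12 and 15 and at 0.87 at Week 18. Acaca was at -2.33 and -2.16 at Weeks 3 and 15 and at 2.50 at Week 9. Of the regulators, Srebf1 was at 0.42 and -0.39 and Mlxipl at -0.61 and -1.54 at Weeks 3 and 15. Pnpla3, a lipase of lipid droplets, was at -2.82 and -0.88 at the same weeks. At Week 9 Acaca, Mlxipl, Srebf1 and Pnpla3 were higher in HFC, by 1.97 to 3.01.

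**Figure D3:**
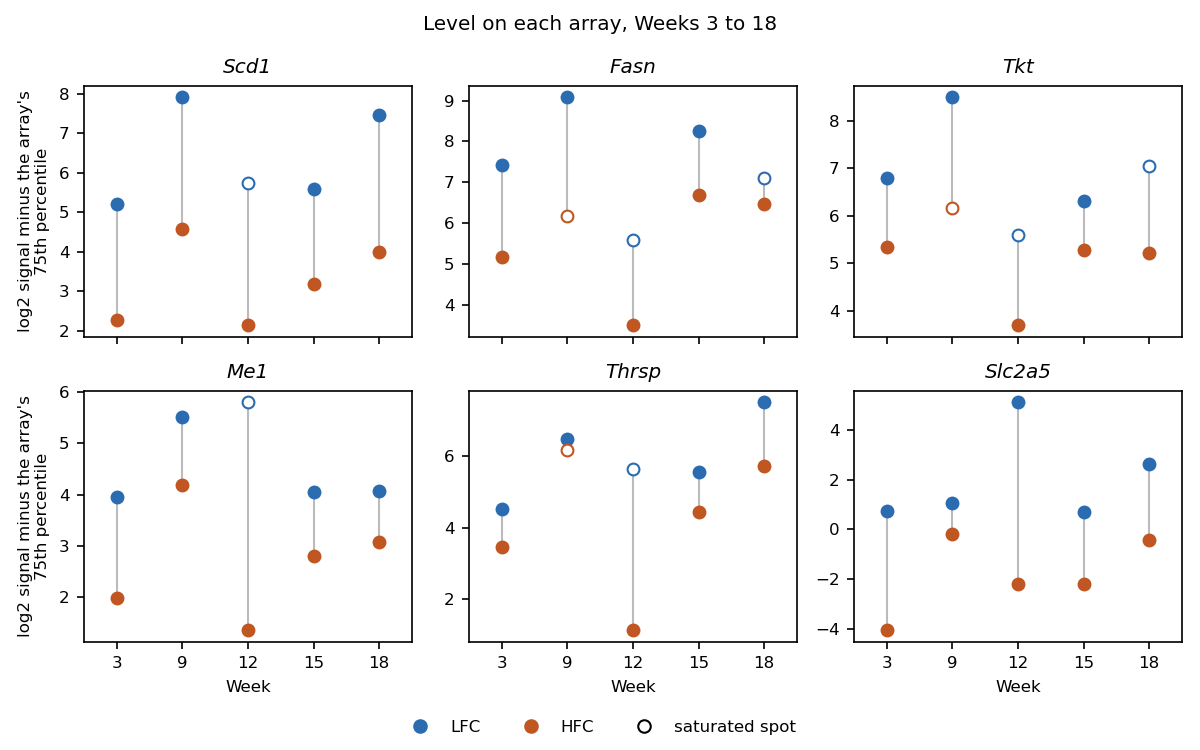
Level (log2 signal minus the 75th percentile of the array, y axis) of 6 genes on each array against the week (x axis), LFC in blue and HFC in orange, with a grey line joining the 2 arrays of a week and open circles for saturated spots. As measured, HFC is the lower array at each of the 5 weeks for all 6 genes, and for Scd1 and Slc2a5 no HFC array reaches the lowest LFC array.

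Slc2a5, the fructose carrier GLUT5, was also among the 10 probes at least 2-fold lower at every week. Its LFC levels were 0.72, 1.05, 5.11, 0.70 and 2.63 and its HFC levels were -4.05, -0.18, -2.20, -2.21 and -0.44. The groups did not overlap, and 4 of the 5 HFC spots were well above background. The mean difference was -3.86 ± 2.30 (SD, n = 5), -3.00 ± 1.45 without Week 12 and -3.85 at Weeks 3 and 15. At Day 1 to Week 0 it was -3.66. Fructose is part of sucrose, which the high fat diet held in a larger amount.

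1700018G05Rik and Gm9112, which neighbour each other on the X chromosome in RefSeq, gave the smallest p values after Scd1. 1700018G05Rik lay at -0.88, -2.12, 1.61, -1.97 and -0.72 on LFC and at -4.03, -7.81, -3.68, -5.48 and -3.58 on HFC. Gm9112 lay at -1.53 to 1.55 with -2.54 at Week 15 on LFC and at -3.98 to -7.80 on HFC. For both, 4 of 5 LFC spots and only 1 of 5 HFC spots were well above background, so most HFC values were not well above background, and the mean differences of -4.10 ± 1.30 and -4.51 ± 1.85 (SD, n = 5) rest on them. LOC677051, a predicted model, differed by -3.93 ± 1.95, with no overlap and 3 of 5 HFC spots above background.

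Gm7049, listed by RefSeq as a pseudogene, is shown because both of its probes on the array hold the same 60 letters and each lay at least 2-fold lower at every week.
Gm7049 probe: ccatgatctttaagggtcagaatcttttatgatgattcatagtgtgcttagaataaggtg
Its differences at the first probe were -2.02, -1.28, -7.17, -1.45 and -3.03, with a mean of -2.99 ± 2.44 (SD, n = 5), and -1.95 ± 0.79 without Week 12. The repeat gave -3.10. Across the array 809 pairs of probes had the same letters, and the median gap between their mean differences was 0.23 with a 95th percentile of 1.13.

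Among the genes well above background on all 10 arrays, those with the same sign at every week and the 10 largest mean differences below 0 were Scd1, Gm7049, Rab6b, LOC677317, Cidea, Me1, Fasn, Thrsp, Tkt and Mpc1. Rab6b, a small GTPase of vesicle transport, differed by -2.25 ± 1.24 (SD, n = 5), and by -0.96 at Weeks 3 and 15. Mpc1, which carries pyruvate into mitochondria, differed by -1.63 ± 1.66, with -0.01 at Week 9, where its HFC spot was saturated. Cidea, a lipid droplet protein of brown fat cells, differed by -2.09 ± 2.50, of which -6.12 was at Week 12 and -0.04 at Week 18, and without Week 12 by -1.08 ± 1.26. Its spots on LFC Weeks 12 and 18 and HFC Week 9 were saturated, so its side at Week 9 is not fixed. HFC Week 12 was the lowest of the 10 arrays for 9 of these 10 genes, and 8 of them had their largest difference at Week 12. These values move with the low brown fat cell markers of that array, and the part of those markers was not tested.

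**Figure D4:**
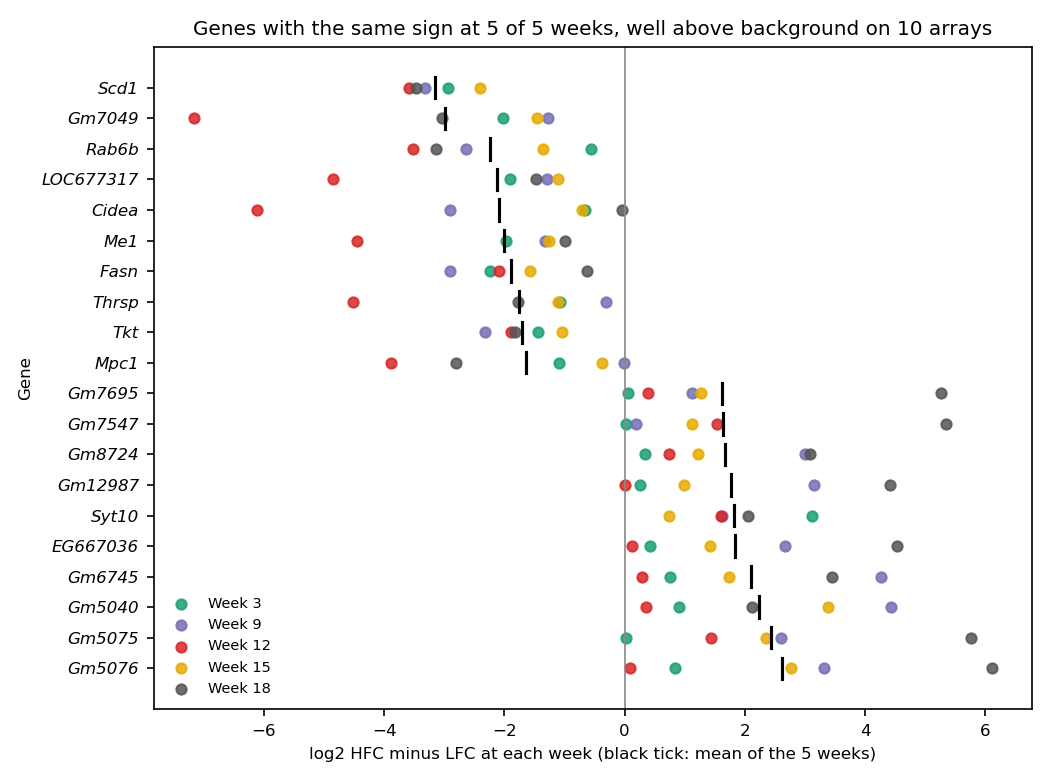
Weekly differences (log2 HFC minus LFC, x axis) of the 10 genes with the largest means below 0 and the 10 with the largest above 0 among genes of the same sign at 5 of 5 weeks, with points coloured by week and a black tick at the mean. Week 12 in red lies farthest out for most genes lower in HFC and Week 18 in grey for most higher ones. The 5 points of Scd1 and of Tkt lie close together, those of Tkt with saturated spots at Weeks 9, 12 and 18.

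Of the 240 probes higher in HFC at every week, 90 (37.5%) stand for predicted models. Among genes well above background on all 10 arrays, 9 of the 10 with the largest means carry names of the form Gm or EG with a number. The other is Syt10, a synaptotagmin, a calcium sensor of secretory vesicles. Syt10 lay at 1.61, 0.74, 0.04, -0.01 and -0.38 on LFC and at 4.73, 2.36, 1.64, 0.73 and 1.66 on HFC, with a mean difference of 1.83 ± 0.86 (SD, n = 5) 1.88 ± 0.99 without Week 12 and 1.93 at Weeks 3 and 15. The largest mean was that of Gm5076 at 2.62 ± 2.36, with 6.11 at Week 18 and 0.08 at Week 12. LFC Week 18 was the lowest of the 10 arrays for 9 of the 10 genes, and 7 had their largest difference at Week 18. On the same array Rps6, a ribosomal protein gene, lay at -2.24, against 4.05 to 5.47 on the other 9 arrays. Over the 13 cytosolic ribosome genes measured at Week 18 the median difference was 0.93, and 2 were lower in HFC. The part of this array in the higher HFC values was not tested.

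Gm5781, a pseudogene in RefSeq, had the largest difference among the 6 probes that were at least 2-fold higher at every week, and its probe is shown for that reason.
Gm5781 probe: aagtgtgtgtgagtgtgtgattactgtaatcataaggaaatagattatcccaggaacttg
Its LFC levels were -1.59, -3.40, -1.42, -2.20 and -4.67, and its HFC levels were 0.45, 0.27, 0.53, 0.81 and -0.15, with no overlap. The mean difference was 3.04 ± 1.09 (SD, n = 5), and 3.31 ± 1.05 without Week 12, with 3 of 5 LFC spots and 5 of 5 HFC spots well above background. The other probes were Gm12595 at 2.19 ± 0.70, Gm12113 at 2.19 ± 0.81 and 2.27 ± 0.86 on a pair of spots with the same letters, LOC547349 at 1.92 ± 0.62 and Wnt9a, a secreted Wnt ligand, at 1.46 ± 0.43. The Gm12595 and Gm12113 probes differ at 5 of 60 letters and none of the 6 probes was well above background on all 10 arrays.

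Predicted models made up a large share of the probes higher without Week 12. Of the 86 probes at least 2-fold higher at Weeks 3, 9, 15 and 18, 61 (70.9%) stand for predicted RefSeq models, beside 21.6% of all probes tested. At Week 12, which the choice did not use, 11 of the 82 with a value were higher in HFC, with a median of -0.97 beside -0.30 over all probes. Only 8 of the 86 were well above background on all 10 arrays. The named genes among them included Ckm and Myl1, muscle genes, with means of 2.51 and 1.77 without Week 12 and differences of -6.44 and -6.82 at Week 12. Of the 16 probes at least 2-fold lower without Week 12, 10 were those of the 5-week count. The other 6 included Klf3, a repressor of the Krüppel-like family that acts in fat cells, with 0.03 at Week 12, and Mosc1, a mitochondrial enzyme, at -3.13, -1.41, -1.63 and -2.66 with no Week 12 value.

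Brown fat cell and general fat cell genes did not keep a side. Of 20 brown fat cell genes, 17 had a mean below 0 but 1 (Cidea) was lower at 5 of 5 weeks as measured. The list median of -1.16 became -0.06 without Week 12. Ucp1 differed by 0.37, -1.18, -9.26, 0.58 and 2.74. General fat cell genes had a median of -0.49 that became -0.16, with Adipoq at 0.64, 2.42, -3.24, 0.86 and -2.30 and Lep, which was well above background on 5 of 10 arrays, at 0.67, 3.60, -2.33, 1.47 and -5.88. At Weeks 3 and 15 the medians of the brown and general fat cell lists were 0.02 and -0.05.

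Genes of fuel use were lower mainly at Weeks 12 and 18. All 18 respiratory chain genes had a mean below 0, beside 13867 of the 23902 probes tested. Of the 18 genes, 3 (Cycs, Ndufb8 and Cox4i1) were lower at 5 of 5 weeks, beside 3.87% of all probes. They were at -0.95 ± 1.09, -0.78 ± 0.63 and -0.70 ± 0.43 (SD, n = 5). All 3 were saturated on HFC Week 9, where they differed by -0.32, -0.36 and -1.33, so their side at that week is not fixed, and the other 2 probes of Cycs were not lower at every week. The list median was -0.78 with Week 12, -0.30 without it and 0.18 at Weeks 3 and 15, so its sign depended on the weeks used. Glycolysis genes were at -0.67 and -0.24, with Gapdh lower at 5 of 5 weeks by -1.01 ± 0.77 and Ldha by -0.73 ± 0.48. Both were saturated on LFC Week 12 and HFC Week 9, so their side at Week 9 (-1.56 and -0.70) is not fixed. Of 21 fatty acid oxidation genes tested, 0 were of the same sign at every week, and Pdk4, the kinase that holds back pyruvate use, was at -0.27, 1.44, -4.50, 0.14 and -3.27. Of 23 sterol synthesis genes tested, 21 had a mean below 0 and 2 were lower at every week, Sc5d at -1.14 ± 1.21 and Acat2 at -0.82 ± 0.58. The list median went from -0.77 to -0.27 without Week 12 and was 0.03 at Weeks 3 and 15.

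Macrophage and cytokine genes changed side from week to week. Of 18 macrophage genes tested, all 18 were lower in HFC at Week 9 and 0 were lower at Week 12. The medians were 0.28, -3.01, 2.95, 0.99 and 0.83 at Weeks 3, 9, 12, 15 and 18. The list median was 0.36 with Week 12 and -0.32 without it, and 0 of the 18 were of the same sign at 5 of 5 weeks. Cd68, a lysosomal protein of macrophages, differed by 1.15, -2.76, 3.93, 1.60 and -0.27. Emr1, which encodes F4/80, differed by -0.43, -2.57, 2.99, 0.78 and -0.47. The lowest macrophage level of each of these pairs belonged to an array titled BA or BAT at Weeks 9, 12 and 18, and the part of the title was not tested. Inflammatory cytokines had medians of -0.38, -4.20, 5.98, 0.51 and 1.68, and a list median of 0.80 that became -0.58 without Week 12. Tnf, read above background on 8 of 10 arrays, differed by 1.51, -4.94, 8.32, -0.31 and 2.93, and Il6 by -0.46, -8.29, 11.12, -0.57 and 4.27. Ccl2, which draws monocytes into tissue, differed by -0.22, -4.38, 6.38, 3.79 and -0.25, and Itgax by 0.16, -1.16, 3.66, 1.97 and -2.98. For each of these the spread over weeks exceeded the mean difference.

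**Figure D5:**
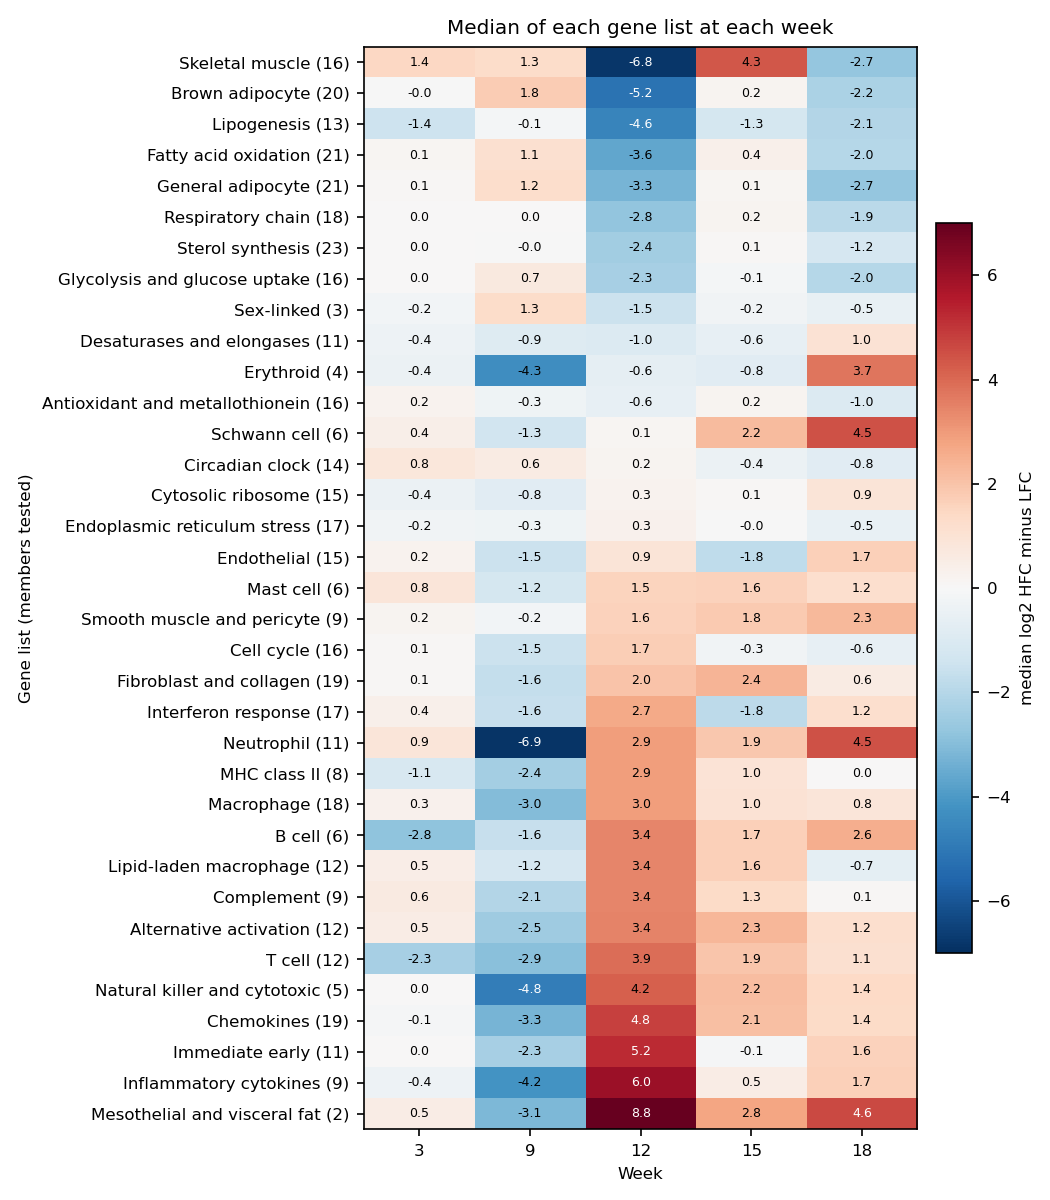
Median log2 difference (HFC minus LFC) of 35 gene lists (rows, with the number of members tested) at each of the 5 weeks (columns), red where HFC is higher. Week 12 is blue for fat cell and skeletal muscle lists and red for immune lists, and Week 9 is the reverse for most of them. Lipogenesis is below 0 at all 5 weeks, but at Week 9 (-0.12) no lower than all probes tested (-0.14).

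Alternative activation genes were higher on the mean for 12 of 12 members tested, with a median of 1.12, or 0.33 without Week 12. Over all 23902 probes tested, 10035 were higher on the mean. None of the 12 genes was higher at 5 of 5 weeks, since all 12 were lower at Week 9. Mrc1, the mannose receptor, differed by 0.64, -1.09, 3.45, 1.67 and 1.07, with a mean of 1.15 ± 1.65 (SD, n = 5), and Lyve1 by 0.50, -1.81, 5.58, 2.83 and 1.63. The fibroblast and collagen list had 19 of 19 members higher on the mean and 0 higher at every week, with Col1a1 at 0.32, -1.47, 2.15, 3.57 and 5.23 and medians of 0.60 with and 0.26 without Week 12. Complement genes (9 of 9 higher on the mean, 0 at every week) and neutrophil genes (11 of 11, 0 at every week) showed the same break at Week 9, where the neutrophil median was -6.85. S100a9, a neutrophil calcium binding protein, lay at 10.1 on LFC Week 9 and at 0.96 on LFC Week 18, wider than any diet difference of its own. Neutrophil, complement, alternative activation and fibroblast members thus had medians below 0 at Week 9 alone.

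Levels of other cell type markers also differed widely between the arrays. Skeletal muscle genes were higher in HFC for 16 of 16 members at both Weeks 3 and 15 (medians 1.44 and 4.33) and had medians of -6.81 at Week 12 and -2.70 at Week 18. Their list median was -0.41 with Week 12 and 1.00 without it. The 6 B cell genes tested were lower in HFC at Weeks 3 and 9 and higher at Weeks 12, 15 and 18, for 6 of 6 at each, with a list median of 0.59 that became -0.07 without Week 12. T cell genes had medians of -2.33, -2.90, 3.92, 1.95 and 1.14, and a list median of 0.40 that became -0.45 without Week 12. Schwann cell genes ranged from -1.34 at Week 9 to 4.48 at Week 18. Endothelial genes had a median of -0.02, and Kdr, the VEGF receptor, was lower at 5 of 5 weeks by -0.92 ± 0.72 (SD, n = 5).

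A few single genes of other lists kept their side as measured. Arntl, the core clock factor BMAL1, was lower at every week, by -2.56, -0.68, -0.50, -0.48 and -0.53, while the clock list had a median of 0.01. Sod1, the cytosolic superoxide dismutase, differed by -0.48 ± 0.25 (SD, n = 5). Its spots on LFC Week 12 and HFC Week 9 were saturated, so its side at Week 9 (-0.85) is not fixed. Rpl18, a ribosomal protein, differed by -0.41 ± 0.58. Gbp2, an interferon-induced GTPase, differed by -0.57 ± 0.66. Endoplasmic reticulum stress genes had a median of 0.01 and 0 members of the same sign at every week.

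The difference at Weeks 3 to 18 was set against that at Day 1 to Week 0 in a fit of 20 arrays. No probe passed (0 of 23902 at an adjusted p under 0.05 in limma, smallest 0.999, and 796 at an unadjusted p under 0.05). The earlier differences of the lipogenesis genes were -2.39 for Fasn, -1.74 for Tkt, -3.05 for Me1, -1.20 for Thrsp, -2.57 for Acly and -2.53 for Acss2, of the same sign as the later ones. Wnt9a had the smallest unadjusted p of the difference among the named genes, 0.0017, with -0.53 earlier and 1.46 later. Syt10 was at -0.12 earlier and 1.83 later, and Gm5781 at 1.08 and 3.04. Wnt9a, Syt10 and Gm5781 were named for their difference at Weeks 3 to 18. That choice alone favours a larger later value, so their values are no test of a change with time. None of these changes with time passed the adjusted test.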

How the data were processed

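RNA was hybridised to 1-colour Agilent mouse arrays of 43803 spots other than controls (40628 probes, 29411 gene names). Per the file headers, the deposited scanner files hold spot intensity that Agilent Feature Extraction had background-subtracted, with no scaling between arrays. The submitters' processing notes give version 9.1 of that program, while the file headers name a later one. A deposited table of the authors' log2 ratios to the LFC array was not used, since it holds their own comparison.

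Spots marked as outliers were dropped, log2 of the processed signal was taken, each array was shifted by its own 75th percentile, and spots of a probe were averaged. Probes that 5 or more of the 10 arrays read well above background entered a limma fit (version 3.58.1, R 4.3.3) with week as a block, two-sided, with Benjamini-Hochberg adjustment at 0.05. The script was tested on simulated data. Current symbols came from RefSeq GRCm38.p6 through the accessions (28136 probes). Arrays have no read depth, so their number and the signal over background limit precision. Each gene was read from its brightest tested probe. Named genes are the 10 largest mean differences in each direction with the same sign at 5 of 5 weeks among probes well above background on all 10 arrays, the 3 smallest p values, up to 4 members of each list, 16 fixed genes, and the probes of the 2-fold counts. Acaca, Srebf1, Mlxipl, Pnpla3, Ckm, Myl1, Klf3 and Mosc1 lie outside this rule and were named after their values were seen. The members and lists were chosen with earlier results of these data known.

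Replicate numbers only name the arrays, and arrays were matched by their week label. The 10 arrays lay on 10 slides and 7 scan dates, with both arrays of Weeks 12, 15 and 18 on the same date. Alternatives were other scalings, filters, blocks and samples, the methods' t-test, and leaving out each week. Weeks 3 and 15 alone were added after seeing the data. Python 3.11.15 with numpy 2.4.6, pandas 2.3.3 and matplotlib 3.10.9 was used for counts and plots. With 1 array per diet and week, p-values measure only the spread of the weekly differences.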

Additional observations from a re-analysis of the deposited data

Results flagged for a closer look

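In the groups of 5 arrays of the named genes (93 groups tested), 3 had an array far from the other 4 by Dixon's test. Chance gives about 1 in 20, so 3 of 93 is no excess over chance. The Ucp1 level of HFC Week 12 was -3.46, with the nearest HFC array at 5.26 (gap over range 0.859). The Cidea level of the same array was -0.57, with the nearest at 6.07 (0.881). The Gm7695 level of LFC Week 18 was -1.33, with the nearest LFC array at 2.71 (0.721).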

How the results depend on the processing

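The count of called probes was 0 with the replicate block and 0 with no replicate block (514 at an unadjusted p under 0.05, against 404), so the pairing by week changed no call. The deviations of the 2 arrays of a week from their group means correlated at 0.36, -0.59, -0.29, 0.35 and -0.18 at Weeks 3, 9, 12, 15 and 18, positive at 2 of 5 weeks. It was 1 (Scd1) with all 21 LFC and HFC arrays and 0 under every other alternative run, including quantile normalization, array weights, the methods' t-test (801 unadjusted, 0 after Benjamini-Hochberg) and each week left out. At an unadjusted p under 0.05 the count ranged from 66 (normexp background correction) to 2543 (only the weeks whose arrays share a scan date). Of 629 values of the 33 named probes with the same sign at 5 of 5 weeks, 0 changed sign. These probes were chosen for that sign, so a fit on fewer of the same weeks could not change it. Of 664 list medians, which were not chosen in this way, 69 changed sign, 14 of them among the 35 lists without Week 12. Lipogenesis stayed between -2.45 and -1.17 in 19 alternatives, and Scd1 between -3.35 and -2.27.

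Counts of probes on the same side at all weeks moved with the weeks used and with the background correction. With each week left out in turn, at least 2-fold lower ranged from 15 to 34, at least 2-fold higher from 10 to 92, lower from 1151 to 2893 and higher from 399 to 1466. With only Weeks 3 and 15, these were 341, 649, 7005 and 5546. Under normexp with an offset of 50 they were 0, 0, 96 and 46. That offset exceeds the 75th percentile of LFC Week 9 (24.1 intensity units), HFC Week 18 (46.2) and LFC Week 3 (49.2). The part of the offset in these counts was not tested. With probes well above background on all 10 arrays, at least 2-fold lower and higher gave 6 and 0, and higher at all weeks 70. Quantile normalization gave 386 higher and 813 lower at all weeks against 240 and 925. The cause of the other shifts was not tested either.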
